A study of Mus musculus with 8 samples.

Results

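The Fc epsilon RI signalling cascade was followed here through 55 mouse genes for the kinases, adaptors, phospholipases, lipid kinases, calcium channels, phosphatases, GTPases and transcription factors that act downstream of the IgE receptor. They were chosen by gene name, without the receptor chains, from 55487 genes listed in each library, and the level of a gene is its TPM (a share of a library's transcripts, scaled for their length) summed over its transcripts. RNA was sequenced from pre-Baso and basophils sorted from the bone marrow of C57BL/6J mice, either wild type (littermate controls, titled ctrl) or Nfil3-depleted (titled floxed out, called deficient here). Both populations were lineage-negative, CD34-negative and ckit-negative with CD200R3 on the surface. The antibody MAR1, which binds the alpha chain of the receptor, stained pre-Baso at a high and basophils at an intermediate level. There were 2 libraries in each of the 4 groups, called biological duplicates by the series' design text. The labels name neither the Cre driver that removed Nfil3 nor the age or number of the mice.

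When an antigen cross-links receptor-bound IgE, the Src family kinase Lyn phosphorylates the receptor's beta and gamma chains and Syk docks on them. Syk phosphorylates the membrane adaptors Lat and Lat2, which assemble Lcp2, Grb2, Vav and phospholipase C gamma, while Fyn and Gab2 feed the PI3K arm. Phospholipase C opens calcium stores, STIM and Orai proteins let calcium in, and protein kinase C, MAP kinases and NFAT drive degranulation and cytokine genes. In basophils this cascade is the classic route to release of histamine and type 2 cytokines.

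Of the 52 genes tested among the 55, 29 rose from pre-Baso to basophils averaged over genotypes and 0 fell. Over all genes tested these shares were 20.4% and 13.3%, and under some other settings Hras was called lower. Within one genotype 22 rose in control and 13 in deficient mice, beside 12.6% and 6.79% of all genes. No cascade gene passed the test between genotypes, where at most 0.048% of all genes were called in either direction. The kinases next to the receptor rose together, whereas Lat and Grb2 did not pass the test. Among the largest rises were those of Mapk12 and Mapk14, which encode 2 of the p38 MAP kinases. Mapk12 met the low-value filter through basophil libraries alone, and 98.8% of its TPM was assigned to transcripts retaining an intron.

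The promoters of the 4 called genes with the largest rises among those with a RefSeq start within 100 bases of the main coding transcript, and that of Lat as an abundant adaptor that did not pass the test, are shown for comparison. Each is the 250 bases before the start in RefSeq's GRCm38.p6 annotation, read 5′ to 3′ on the gene's strand. Mapk12 is at chr15:89140704-89140953 on the minus strand, Mapk14 at chr17:28691092-28691341 on the plus strand, Prkcd at chr14:30626209-30626458 on the minus strand, Pik3cd at chr4:149698709-149698958 on the minus strand and Lat at chr7:126369569-126369818 on the minus strand. Capitals mark the only match found to the motifs searched, a RUNX motif read on the opposite strand in the Mapk14 promoter, 180 bases before its start.
Mapk12: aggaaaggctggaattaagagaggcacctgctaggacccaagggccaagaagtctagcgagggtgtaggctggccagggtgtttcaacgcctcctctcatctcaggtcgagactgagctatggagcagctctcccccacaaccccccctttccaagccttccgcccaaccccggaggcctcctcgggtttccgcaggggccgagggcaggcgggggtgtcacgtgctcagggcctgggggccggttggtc
Mapk14: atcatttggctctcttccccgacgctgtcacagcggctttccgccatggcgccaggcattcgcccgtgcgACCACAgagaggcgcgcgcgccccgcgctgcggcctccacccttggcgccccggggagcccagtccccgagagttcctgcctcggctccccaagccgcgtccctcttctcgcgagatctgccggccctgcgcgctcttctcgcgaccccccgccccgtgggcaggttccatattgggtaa
Prkcd: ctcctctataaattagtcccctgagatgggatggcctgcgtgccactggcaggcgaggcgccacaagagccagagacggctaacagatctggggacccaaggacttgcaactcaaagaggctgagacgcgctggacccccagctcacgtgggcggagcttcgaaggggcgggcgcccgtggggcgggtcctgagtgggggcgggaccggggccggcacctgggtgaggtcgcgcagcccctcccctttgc
Pik3cd: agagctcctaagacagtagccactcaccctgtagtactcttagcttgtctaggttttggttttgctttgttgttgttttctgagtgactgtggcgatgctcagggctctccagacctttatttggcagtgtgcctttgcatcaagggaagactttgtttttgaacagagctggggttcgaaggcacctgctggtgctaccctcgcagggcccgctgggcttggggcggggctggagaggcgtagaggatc
Lat: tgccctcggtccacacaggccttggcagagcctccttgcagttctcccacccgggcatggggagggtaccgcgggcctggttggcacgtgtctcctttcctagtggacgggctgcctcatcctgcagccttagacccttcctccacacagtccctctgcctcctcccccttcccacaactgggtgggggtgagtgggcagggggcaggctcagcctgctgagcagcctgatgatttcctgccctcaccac
The letters searched on both strands were AGATAA for GATA factors, TTCNNNGAA for STAT factors, TGTGGT for RUNX, TTGCNNAA for C/EBP and TTANNTAA for NFIL3. Of the 55 genes, 44 had a row in the promoter table, 36 of them with a start within 100 bases. The NFIL3 letters were in 0 of these 44 promoters and in 5.44% of 32841 promoters of the same length. GATA letters were in 4.55% of the cascade promoters against 9.99% of all, RUNX letters in 6.82% against 14.0%, STAT letters in 4.55% against 7.02% and C/EBP letters in 6.82% against 9.57%. The cascade shares rest on few genes, 2 each for GATA and STAT letters and 3 each for RUNX and C/EBP letters. The cascade promoters and all promoters were not matched for base composition. These matches describe letters in a window and show no binding.

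Assigned bases per library, from coverage times length, were 271.7 to 398 megabases. Genes annotated as microRNA took 57.4% to 62.8% of TPM and protein-coding genes 18.7% to 22.4%, so 1 TPM here stands for more of the messenger RNA than in libraries without such reads. Nfil3 was at 6.61, 7.65, 20.5 and 22.5 TPM in the 4 control libraries and at 0, 0.624, 0.853 and 1.32 TPM in the 4 deficient ones, and its groups did not overlap (log2 difference -3.05, p = 0.0286 by a two-sided exact permutation test over 70 splits, the smallest p possible). The basophil protease gene Mcpt8 was at 6244 and 7888 TPM in control pre-Baso, 969 and 1400 TPM in control basophils and 1.98 to 6.04 TPM in the 4 deficient libraries. Cd200r3, which encodes the surface protein used in the sort, was at 223 to 383 TPM in all 8 libraries. The whole list of 9 basophil markers summed to 20810 to 35030 TPM in pre-Baso and 5169 to 10950 TPM in basophils. Averaged over genotypes 4 of the 9 were called lower and 1 higher in basophils, beside 13.3% and 20.4% of all genes. Prss34, the most abundant of them, was at 18970 to 25020 TPM in pre-Baso and 2667 to 9494 TPM in basophils. The mast cell markers Mcpt1, Mcpt2, Mcpt4, Tpsab1 and Mrgprb2 were at 0 in every library, and the summed mast cell list of 8 genes stayed under 3.03 TPM.

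Cascade genes made up 651 to 791 TPM in the pre-Baso libraries and 953 to 1183 TPM in the basophil libraries, a fold of 1.51 between the means. As a share of protein-coding TPM they held 0.318% to 0.365% in pre-Baso and 0.502% to 0.569% in basophils, with no overlap. Over all libraries, 6 of the 55 genes had a mean level under 1 TPM, 14 lay from 1 to 5, 24 from 5 to 20, 8 from 20 to 50 and 3 at 50 TPM or more. Those 3 were the GTPase gene Rac2 (mean 181 TPM), the adaptor gene Lat2 (91.7 TPM) and the protein kinase C delta gene Prkcd (60.9 TPM), and Lat (49.3 TPM) and Csk (39.4 TPM) came next. In these bulk libraries a change in the share of cells of a type and a change of RNA per cell cannot be told apart.

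**Figure D1:**
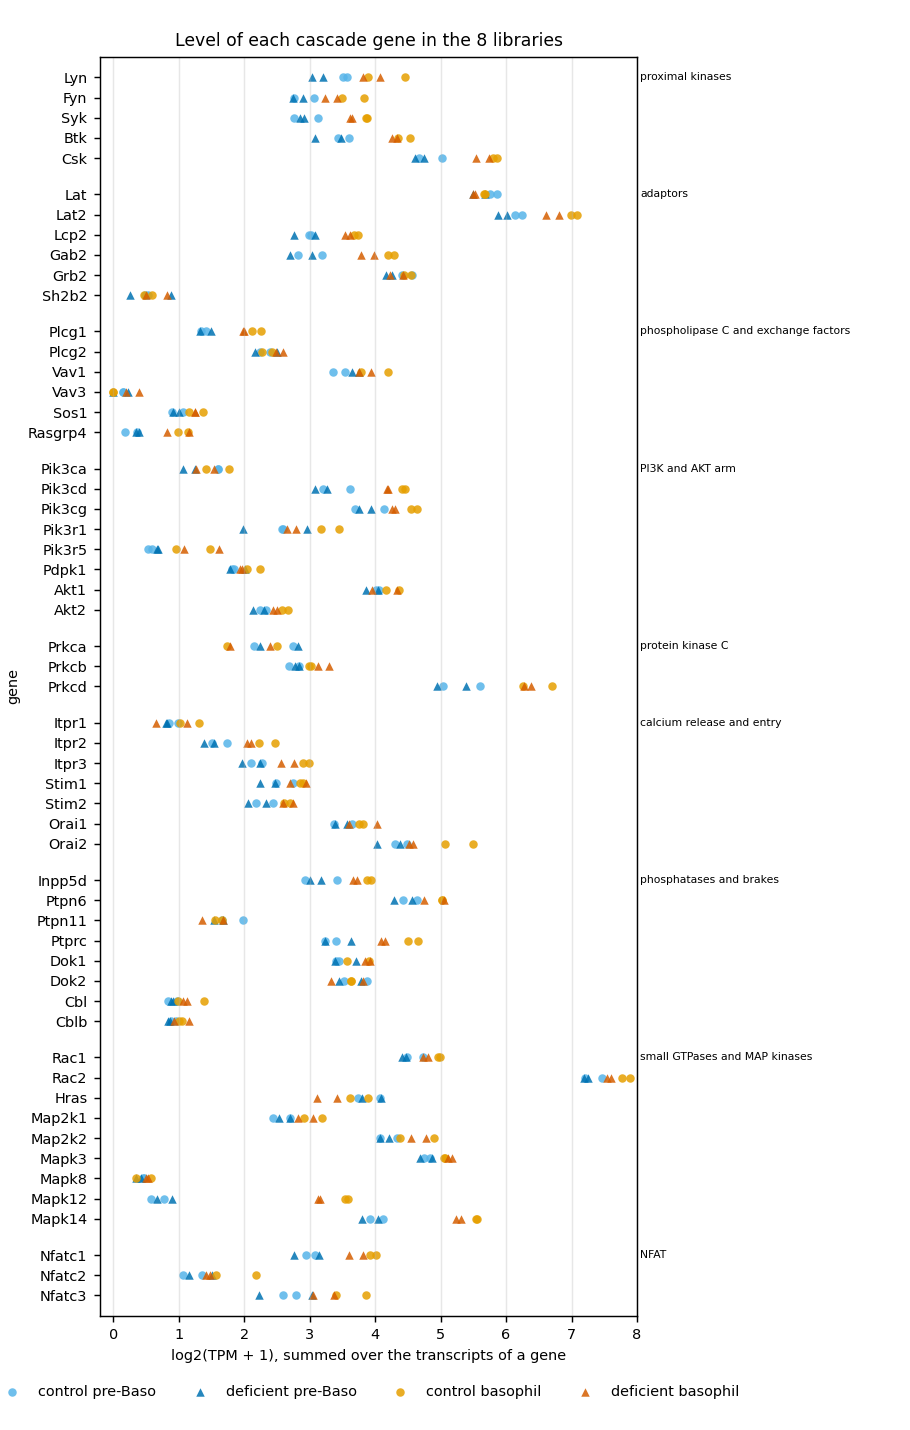
Level of each of the 55 cascade genes in the 8 libraries as log2(TPM + 1), with 1 point per library, circles for control and triangles for deficient mice, blue for pre-Baso and orange for basophils. Rac2 lies highest in every library, and for Mapk12 the orange points stand far to the right of the blue ones.

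The comparison of basophils with pre-Baso asks how the transcripts of the cascade change between these 2 sorted stages. It was tested by limma on log2(TPM + 1) over the 12511 genes with at least 1 TPM in at least 2 libraries, with Benjamini-Hochberg adjustment and a call at an adjusted p under 0.05. Of the 55 genes 52 were tested; Sh2b2, Vav3 and Mapk8 stayed under 1 TPM in every library. Averaged over genotypes, 29 of 52 were higher and 0 lower in basophils, where over all genes tested 20.4% were called higher and 13.3% lower. At an unadjusted p under 0.05 limma had 1 cascade gene lower, Hras, beside 17.4% of all genes. The median log2 change of the 52 was 0.45, against 0.09 over all genes tested, and 47 of 52 were positive. All 4 basophil libraries lay above all 4 pre-Baso libraries for 34 of the 52 genes, or 65.4%, against 21.3% of all genes tested, and below them for 0 genes, against 13.1%. For 6 of the 52 (Rasgrp4, Pik3r5, Itpr1, Cbl, Cblb and Mapk12) the low-value filter was met through basophil libraries alone, and 26 of the 46 others were among the 29 calls.

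Within control mice 22 cascade genes were called higher and 0 lower in basophils, beside 12.6% and 10% of all genes, with a median log2 change of 0.51 against 0.08 over all genes. At an unadjusted p under 0.05, 0 cascade genes were lower in control mice, beside 15.3% of all genes. Within deficient mice 13 were called higher and 0 lower, beside 6.79% and 4.11% of all genes, with a median of 0.41 against 0.10, and 1 gene was lower at an unadjusted p under 0.05, beside 10.4% of all genes. The control count was 8 without the first control pre-Baso library, 12 without the first control basophil library and 13 without the second. The deficient count was 1 and 7 without the first and the second deficient pre-Baso library and 2 and 3 without the first and the second deficient basophil library. The 2 comparisons share no library, but the fit gave them a common estimate of each gene's spread, so their calls are not independent. Both comparisons called 12 genes, which is 54.5% of the control calls and 92.3% of the deficient calls. They were Btk, Csk, Gab2, Lat2, Lcp2, Mapk12, Mapk14, Nfatc1, Pik3cd, Prkcd, Ptprc and Syk. The same overlap over all genes tested was not counted. Lyn passed the test in deficient mice alone, and 10 genes passed in control mice alone, a split that does not show a difference between genotypes. That difference was tested directly, and 0 of 52 genes passed it, as reported with the genotype comparisons.

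**Figure D2:**
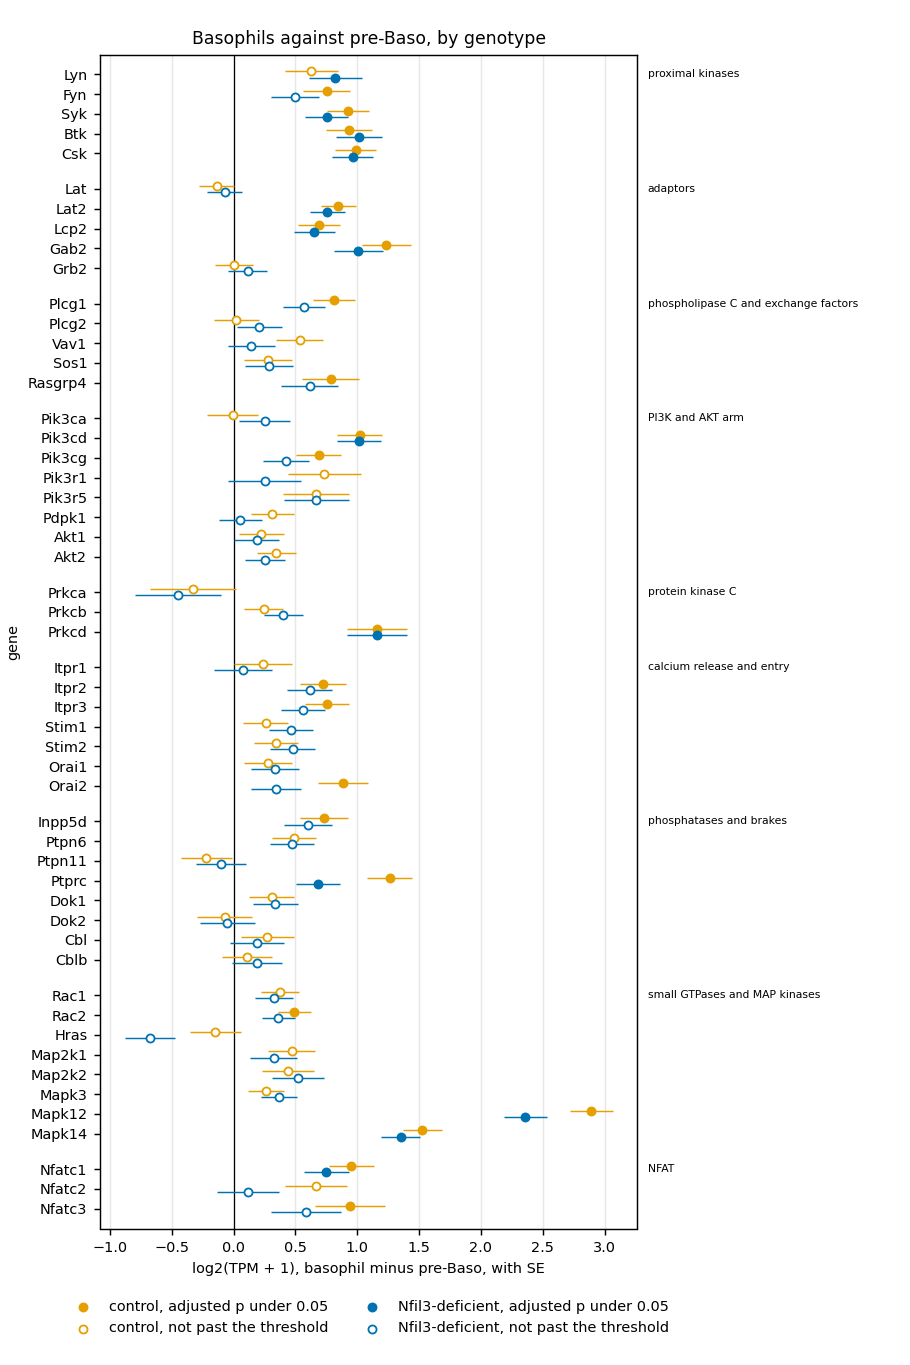
Log2(TPM + 1) of basophils minus pre-Baso for the 52 tested cascade genes, in control mice (orange) and deficient mice (blue), with standard errors and filled points where the adjusted p was under 0.05. Mapk12, at 2.89 in control and 2.36 in deficient mice, and Mapk14, at 1.53 and 1.35, lie farthest to the right. Prkca, Hras, Ptpn11, Lat and Dok2 lie left of 0 in both genotypes.

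The counts by role group below are calls averaged over genotypes, where 20.4% of all genes tested were called higher. The proximal tyrosine kinases all rose, 5 of 5, and their summed level was 52.8 to 67.9 TPM in pre-Baso and 99.4 to 121.6 TPM in basophils, a fold of 1.92. Csk, which phosphorylates the inhibitory tyrosine of Src family kinases and so restrains them, was at 24.4 and 31.3 TPM in control pre-Baso, 25.9 and 23.4 TPM in deficient pre-Baso, 54.6 and 57.1 TPM in control basophils and 45.7 and 52.4 TPM in deficient basophils. The lowest basophil library thus stood well above the highest pre-Baso library, and the mean log2 change was 0.97 ± 0.12 (SE; adjusted p = 0.000687).

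Btk, a Tec family kinase that acts on phospholipase C gamma, was at 9.75 and 11.1 TPM in control pre-Baso, 7.47 and 10.1 TPM in deficient pre-Baso, 22.3 and 19.4 TPM in control basophils and 18.1 and 19.2 TPM in deficient basophils. Its populations did not overlap in either genotype, with a log2 change of 0.97 ± 0.13 (SE; adjusted p = 0.001). Syk, the kinase that docks on the phosphorylated gamma chain, was at 5.75, 7.70, 6.50 and 6.21 TPM in the control and then deficient pre-Baso libraries and at 13.6, 13.5, 11.3 and 11.5 TPM in the basophil libraries in the same order. Replicates of Syk in basophils lay close together, and the change was 0.84 ± 0.12 (SE; adjusted p = 0.00147). Lyn ranged from 7.22 to 10.9 TPM in pre-Baso and from 13.1 to 20.9 TPM in basophils (log2 change 0.73), and Fyn from 5.74 to 7.36 and from 8.46 to 13.3 TPM (0.63).

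Among the adaptors 3 of 5 tested genes rose. Lat2, a membrane adaptor related to Lat, was at 69.2 and 74.8 TPM in control pre-Baso, 63.7 and 57.9 TPM in deficient pre-Baso, 134 and 126 TPM in control basophils and 96.7 and 110.8 TPM in deficient basophils. The basophil libraries were all above the pre-Baso libraries, by a log2 change of 0.80 ± 0.10 (SE; adjusted p = 0.000691). Lat2 shares 952 of its 2621 exonic bases with Rfc2 on the opposite strand, and since the quantification named no strand option their reads cannot be told apart there. Rfc2, a replication factor subunit gene, was at 67.2 to 86.0 TPM in pre-Baso and 74.9 to 97.6 TPM in basophils, with overlap. Its log2 change in the same limma fit was 0.24 ± 0.11 (SE; adjusted p = 0.147). The part of the shared reads in the Lat2 change was not tested.

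Gab2, the scaffold that recruits PI3K, was at 6.07 and 8.14 TPM in control pre-Baso, 5.50 and 7.24 TPM in deficient pre-Baso, 17.3 and 18.6 TPM in control basophils and 14.8 and 12.7 TPM in deficient basophils. It rose by a log2 change of 1.12 ± 0.14 (SE; adjusted p = 0.00075), without overlap. Lcp2, the cytosolic adaptor that links Lat complexes to Vav and phospholipase C, was at 6.97, 7.13, 5.80 and 7.51 TPM in the control and then deficient pre-Baso libraries and at 11.7, 12.3, 11.3 and 10.7 TPM in the basophil libraries. Its change was 0.67 ± 0.12 (SE; adjusted p = 0.00364), with all basophil libraries above. Lat itself, the central membrane scaffold, ranged from 43.9 to 57.4 TPM in pre-Baso and from 44.1 to 50.5 TPM in basophils (log2 change -0.10 ± 0.10, adjusted p = 0.455), and its populations overlapped. Grb2, an adaptor that carries the exchange factor Sos1, likewise overlapped, at 16.9 to 22.7 and 17.7 to 22.3 TPM (0.06 ± 0.11, adjusted p = 0.715).

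In the group of phospholipase C and exchange factors 2 of 5 tested genes rose, Plcg1 and Rasgrp4. Rasgrp4 met the low-value filter through basophil libraries alone. Plcg1, phospholipase C gamma 1, was at 1.68, 1.53, 1.51 and 1.83 TPM in the control and then deficient pre-Baso libraries and at 3.35, 3.81, 2.98 and 2.94 TPM in the basophil libraries. Every basophil library lay above every pre-Baso library, with a log2 change of 0.69 ± 0.12 (SE; adjusted p = 0.00357). Its isoform gene Plcg2 was at 3.48 to 4.64 TPM in pre-Baso and 3.81 to 5.01 TPM in basophils, with overlap and no call (0.12 ± 0.13, adjusted p = 0.523). Rasgrp4, a Ras exchange factor gene, was low in both, at 0.135 to 0.308 TPM in pre-Baso and 0.762 to 1.23 TPM in basophils (0.70 ± 0.16, adjusted p = 0.0124). It shares 978 exonic bases with Fam98c on the opposite strand, where reads cannot be told apart. Fam98c was more abundant, at 3.555 to 4.47 TPM in pre-Baso and 4.615 to 6.37 TPM in basophils. The part of the shared reads in the Rasgrp4 change was not tested. Vav1, the Rac exchange factor of blood cells, changed by 0.34 ± 0.13 (SE) and did not pass the test (adjusted p = 0.0843).

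Of 8 genes of the PI3K and AKT arm 3 rose, of which Pik3r5 met the low-value filter through basophil libraries alone. Pik3cd, the catalytic subunit gene of the PI3K delta isoform of leukocytes, was at 8.23 and 11.3 TPM in control pre-Baso, 7.49 and 8.64 TPM in deficient pre-Baso, 20.9 and 20.3 TPM in control basophils and 17.2 and 17.3 TPM in deficient basophils. Its level was about as high in both replicates of each basophil group, and the log2 change was 1.02 ± 0.13 (SE; adjusted p = 0.000776). Pik3cg, the gene of the gamma isoform that answers to G protein-coupled receptors, rose by 0.56 ± 0.13 (SE; adjusted p = 0.0126), and Pik3r5, a regulatory subunit gene of that isoform, by 0.67 ± 0.19 (SE; adjusted p = 0.026) at levels under 2.07 TPM. Pik3ca, Pik3r1, Pdpk1, Akt1 and Akt2 had positive changes between 0.12 and 0.49 that did not pass the test.

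One of the 3 protein kinase C genes rose. Prkcd was at 31.7 and 47.6 TPM in control pre-Baso, 29.9 and 40.9 TPM in deficient pre-Baso, 102.7 and 75.9 TPM in control basophils and 82.0 and 76.4 TPM in deficient basophils. The replicates of each pre-Baso group differed, yet all 4 lay under the basophil range, and the log2 change was 1.16 ± 0.17 (SE; adjusted p = 0.00166). Prkcb changed by 0.32 ± 0.11 (SE; adjusted p = 0.0567) and Prkca by -0.39 ± 0.25 (SE; adjusted p = 0.262), neither past the threshold.

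Of the 7 genes of calcium release and entry 4 rose. Itpr3, an inositol trisphosphate receptor gene, was at 3.30, 3.85, 2.92 and 3.72 TPM in the control and then deficient pre-Baso libraries and at 6.43, 6.97, 4.93 and 5.76 TPM in the basophil libraries. All basophil libraries lay above all pre-Baso libraries, those of control mice highest (log2 change 0.66 ± 0.13, SE; adjusted p = 0.00526). Its paralogue Itpr2 was at 1.84, 2.35, 1.60 and 1.92 TPM in pre-Baso and at 3.68, 4.52, 3.13 and 3.31 TPM in basophils, in that order of groups. The order of groups was the same as for Itpr3, with a log2 change of 0.67 ± 0.13 (SE; adjusted p = 0.00563). Orai2, a pore subunit of store-operated calcium channels, rose by 0.61 ± 0.14 (SE; adjusted p = 0.0122), and Stim2, a calcium sensor of the store, by 0.41 ± 0.13 (SE; adjusted p = 0.0385). Stim1, Orai1 and Itpr1 had changes of 0.36, 0.31 and 0.16, which did not pass the test.

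Of the 8 phosphatases and brakes 3 rose, Ptprc, Inpp5d and Ptpn6. Ptprc, the CD45 phosphatase gene, was at 8.41 and 9.54 TPM in control pre-Baso, 8.45 and 11.4 TPM in deficient pre-Baso, 24.2 and 21.7 TPM in control basophils and 16.8 and 15.95 TPM in deficient basophils. Basophils of both genotypes stood above pre-Baso, control basophils highest, with a log2 change of 0.97 ± 0.13 (SE; adjusted p = 0.000945). CD45 is listed here among the phosphatases although it also activates Src family kinases.

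Inpp5d, the gene of the SHIP lipid phosphatase that opposes PI3K, was at 6.62, 9.73, 7.07 and 8.01 TPM in the control and then deficient pre-Baso libraries and at 14.4, 13.7, 11.7 and 12.3 TPM in the basophil libraries. Its populations did not overlap (0.67 ± 0.14, SE; adjusted p = 0.00714). Ptpn6, the SHP tyrosine phosphatase gene of blood cells, rose by 0.48 ± 0.13 (SE; adjusted p = 0.0195). Its relative Ptpn11 changed by -0.16, the Dok adaptors Dok1 and Dok2 by 0.32 and -0.06, and the ubiquitin ligase genes Cbl and Cblb by 0.23 and 0.15, all short of the threshold.

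Small GTPases and MAP kinases had 6 of 8 tested genes called, of which Mapk12 met the low-value filter through basophil libraries alone. Mapk14, p38 alpha, was at 14.2 and 16.4 TPM in control pre-Baso, 13.0 and 15.5 TPM in deficient pre-Baso, 45.6 and 46.1 TPM in control basophils and 36.6 and 38.9 TPM in deficient basophils. Its lowest basophil library was more than the highest pre-Baso library by a wide margin, and the log2 change was 1.44 ± 0.11 (SE; adjusted p = 0.000111). Mapk12, p38 gamma, was at 0.713 and 0.488 TPM in control pre-Baso, 0.590 and 0.863 TPM in deficient pre-Baso, 11.1 and 10.6 TPM in control basophils and 7.73 and 7.92 TPM in deficient basophils. The gene was near the lower limit of measurement in pre-Baso and clearly present in basophils, with a log2 change on the TPM + 1 scale of 2.63 ± 0.12 (SE; adjusted p = 2.37e-05) and a fold of 14.1 between the mean TPM values. Transcripts retaining an intron took 98.8% of Mapk12 TPM, as described below.

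Rac2, the Rac GTPase of blood cells, rose by 0.42 ± 0.09 (SE; adjusted p = 0.0102), from 145 to 176 TPM in pre-Baso to 186 to 236 TPM in basophils. Rac1, which shares 2309 of its 4496 exonic bases with Daglb on the opposite strand, was higher by 0.35 ± 0.11 (SE; adjusted p = 0.0343). Daglb was itself called higher (0.57 ± 0.16, SE; adjusted p = 0.0272), at 2.07 to 3.39 TPM in pre-Baso and 3.65 to 5.31 TPM in basophils, and reads of the shared bases cannot be told apart. Map2k2, a kinase of ERK, rose by 0.48 ± 0.15 (SE; adjusted p = 0.038) and Mapk3, which encodes an ERK kinase, by 0.31 ± 0.10 (SE; adjusted p = 0.0452). Map2k1 missed the threshold at 0.40 ± 0.13 (SE; adjusted p = 0.051). Hras, a Ras GTPase gene, had levels of 12.4 to 15.96 TPM in pre-Baso and 7.67 to 13.9 TPM in basophils (-0.41 ± 0.14, SE; adjusted p = 0.0583). Its adjusted p by limma was 0.0211 with TPM rescaled to protein-coding genes and 0.0084 with median-of-ratios scaling. With TPM unscaled and a minimum of 5 TPM it was 0.0391, so that the call for Hras depends on the scaling and on the filter.

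NFAT genes, whose proteins enter the nucleus after calcium rises, were called in 2 of 3 cases. Nfatc1 was at 6.71, 7.45, 5.81 and 7.85 TPM in the control and then deficient pre-Baso libraries and at 15.2, 14.1, 11.1 and 13.1 TPM in the basophil libraries. There was no overlap, and the log2 change was 0.85 ± 0.13 (SE; adjusted p = 0.0019). Nfatc3 rose by 0.76 ± 0.20 (SE; adjusted p = 0.0201), and Nfatc2, at 1.10 to 3.55 TPM over the libraries, did not pass the test (0.39 ± 0.18, adjusted p = 0.125).

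**Figure D3:**
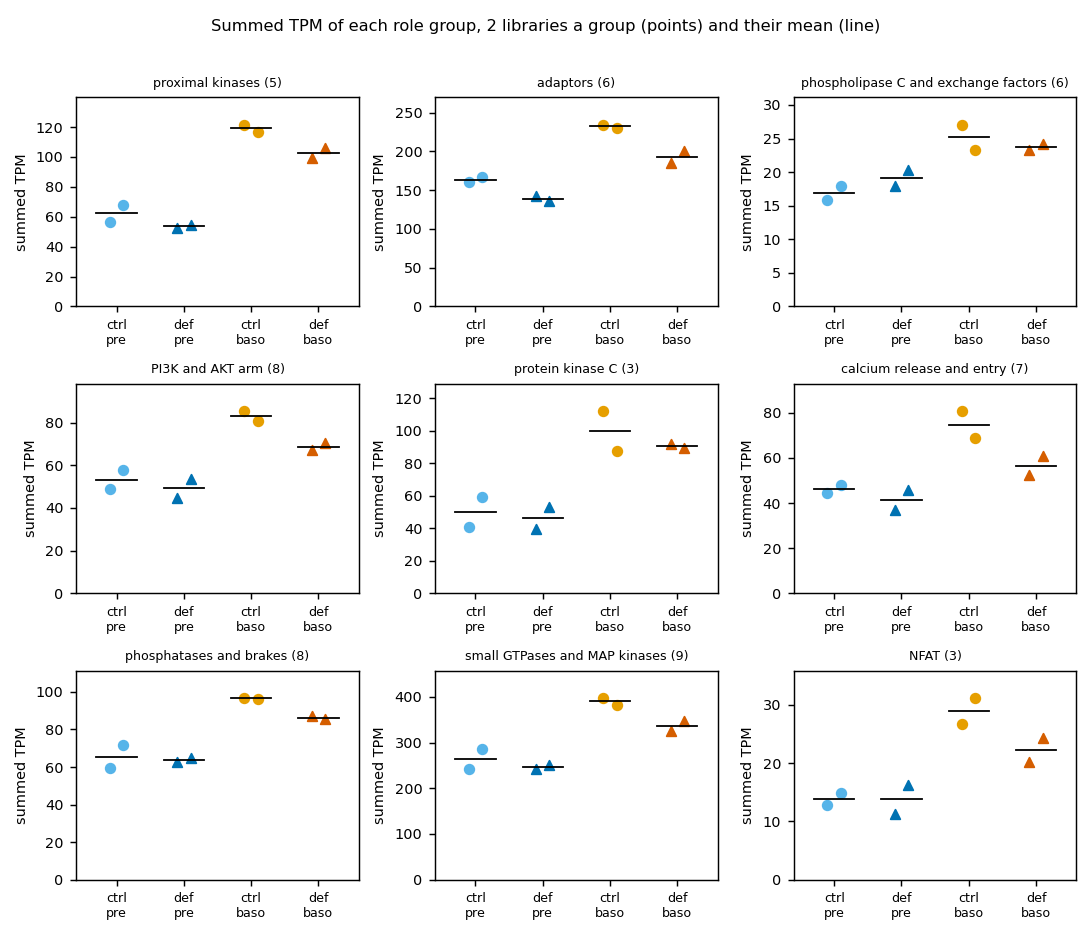
Summed TPM of each role group (number of genes in brackets) in control and deficient pre-Baso and basophils, with 1 point per library and a line at the mean of the 2. In each of the 9 groups the 4 basophil libraries lie above the 4 pre-Baso libraries, with folds between the means from 1.36 for phospholipase C and exchange factors to 1.98 for protein kinase C. Most of the protein kinase C sum was Prkcd, with mean levels of 37.5 TPM in pre-Baso and 84.2 TPM in basophils. Prkcb had 5.91 and 7.66 TPM and Prkca 4.75 and 3.43 TPM.

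The annotated transcripts behind the Mapk12 values were checked, because 98.8% of its TPM was assigned to transcripts annotated as retaining an intron and 0.0% to the coding ones. Mapk12 (ENSMUSG00000022610) lies on the minus strand of chromosome 15 from 89130584 to 89140703 in GRCm38, with 7 transcripts. Over the 12 exons of its coding transcript, 1808 bases in all, mean coverage per base was 0.175 to 0.429 in the pre-Baso libraries and 3.02 to 4.26 in the basophil libraries. Of the 12 exons 8 were covered in all 4 basophil libraries, each above every pre-Baso library. These values spread the mean coverage of an annotated exon evenly, and exons of transcripts retaining an intron include intron bases. Exons 1 and 2, for example, both had 2.30 in the second control basophil library. Whether the rise lay in coding exons or in retained introns therefore cannot be told. For 49 of the 55 cascade genes the most abundant transcript was a coding one. The 5 others beside Mapk12 were Prkcd, Ptprc and Ptpn11, with 61.3%, 85.5% and 86.9% of TPM on transcripts with a retained intron, and Pik3cg and Prkcb, led by a transcript annotated for nonsense-mediated decay, with 12.4% and 2.3% of TPM on coding ones. For 13 genes the share of the leading transcript ranged from under 10% to over 80% between libraries, and for this reason only gene sums are reported.

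**Figure D4:**
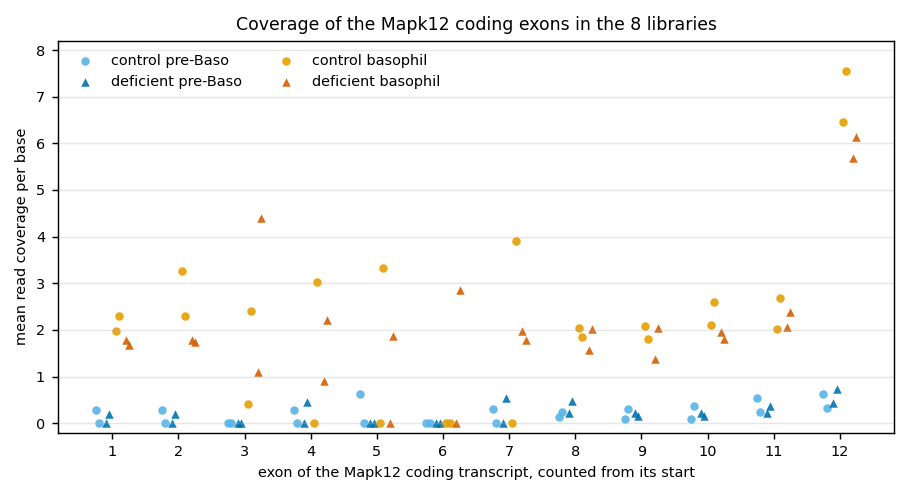
Mean read coverage per base over each of the 12 exons of the Mapk12 coding transcript, 1 point per library. Values include coverage assigned to transcripts that retain an intron, averaged over exon and intron bases. The orange basophil points lie above the blue pre-Baso points in 8 of the 12 exons, while exons in the middle of the transcript had basophil libraries at 0.

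A list of 84 other genes of the pathway, chosen with earlier results known, was read beside the cascade. Of the 59 tested, 33 were higher and 0 lower in basophils in the genotype mean, beside 20.4% and 13.3% of all genes, with a median log2 change of 0.48 against 0.09. At an unadjusted p under 0.05 limma had 0 lower, beside 17.4% of all genes. In control mice 15 passed and in deficient mice 8, all higher, beside 12.6% and 6.79% of all genes. The strongest calls were Map3k1, a MAP kinase kinase kinase gene (1.59 ± 0.14, SE; adjusted p = 0.000185), Pag1, the adaptor gene that recruits Csk (1.49 ± 0.17), and Prkcq, protein kinase C theta (1.29 ± 0.17). Also among the calls were Sos2, Ptprj, Dok3, Fes, Hcls1 and Tec, which rose by 0.72 to 1.03.

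Of the 3 receptor chain genes 1 was called lower and 0 higher. Fcer1a, the IgE-binding alpha chain, was at 960 and 744 TPM in control pre-Baso, 711 and 547 TPM in deficient pre-Baso, 424 and 280 TPM in control basophils and 245 and 160 TPM in deficient basophils. It was lower in every basophil library, by a log2 change of -1.47 ± 0.19 (SE; adjusted p = 0.000823), but the sort separated the populations by staining of this same chain, so its direction is tied to the gate. Ms4a2, the beta chain, ranged from 109 to 286 TPM in pre-Baso and from 192 to 235 TPM in basophils (0.03 ± 0.25, SE; adjusted p = 0.931). Fcer1g, the gamma chain, ranged from 922 to 1208 and from 1129 to 1405 TPM (0.24 ± 0.10, SE; adjusted p = 0.112). Both overlapped between populations.

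Several lists of markers of other marrow cells differed between the populations. Their counts are calls averaged over genotypes, where 20.4% of all genes tested were called higher and 13.3% lower. The 5 megakaryocyte markers overlapped, with sums of 58.9 to 99.0 TPM in pre-Baso and 69.9 to 90.5 TPM in basophils, and 0 of 2 tested genes called. The 8 neutrophil markers summed to 779 to 1222 TPM in pre-Baso and 1304 to 2476 TPM in basophils, with 6 of 8 called higher. For the 8 monocyte and macrophage markers the sums were 151 to 247 and 321 to 862 TPM, with 5 of 8 called higher, and for the 6 erythroid markers 29.5 to 112.6 and 128 to 162 TPM, with 4 of 5 tested genes called higher. Eosinophil markers summed to 14.8 to 100.1 TPM in pre-Baso and to 2660, 30.7, 191 and 28.2 TPM in the control and then deficient basophil libraries, replicate 1 being the higher in each genotype, and 1 of 7 tested genes was called higher. Prg2, an eosinophil granule gene, led that list at 2354 TPM in the first control basophil library. Markers of B and plasma cells summed to 14.0 to 30.01 TPM in pre-Baso and 23.6 to 143 TPM in basophils, with 1 of 4 tested genes called higher. In the T and NK cell list Klrb1c, Ncr1 and Trac were at 0 in all libraries, and its one tested gene, the granule protein gene Nkg7, was lower in basophils, at 129.5 to 186 TPM in pre-Baso and 53.5 to 76.0 TPM in basophils (-1.36 ± 0.16, SE; adjusted p = 0.000552).

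The 5 granulocyte progenitor markers summed to 1212 to 2271 TPM in pre-Baso and 148 to 752 TPM in basophils. Of these 3 of 5 were called lower, beside 13.3% of all genes. All 5 proliferation markers were called lower, with sums of 186 to 241 TPM and 13.8 to 74.2 TPM. The part of these cells and of proliferation in the cascade result was not tested. With only the second basophil library of each genotype, which had the lower eosinophil, neutrophil and monocyte sums, 19 of 48 tested cascade genes were called higher in the genotype mean, all among the 29, beside 12.7% of all genes. Their median log2 change was 0.43, against 0.09 over all genes. That setting was chosen after seeing the data and leaves 1 library in each basophil group, which is assumed to vary like the pre-Baso groups. Among the 19 were Mapk12, Mapk14, Csk, Btk, Syk, Gab2, Lat2, Lcp2, Pik3cd, Prkcd, Ptprc, Nfatc1, Plcg1, Itpr2, Itpr3 and Inpp5d. In control mice 8 genes were called and in deficient mice 2, beside 5.57% and 1.7% of all genes.

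The genotype comparison asks whether loss of Nfil3 changes the transcripts of the cascade. In pre-Baso 0 of 52 tested cascade genes were called by limma in either direction, beside 0.032% of all genes called higher and 0.032% called lower, and 0 had an unadjusted p under 0.05, beside 1.63% and 2.75% of all genes. The median log2 difference was -0.08, against -0.04 over all genes, and 38 of 52 were negative. This direction rested on single libraries. Leaving out the first or the second control library moved the cascade median to -0.18 or 0.01, against -0.14 or 0.06 over all genes. Leaving out the first or the second deficient library moved it to -0.01 or -0.15, against -0.03 or -0.05 over all genes. Both deficient libraries lay below both controls for 9 genes, or 17.3%, against 19.3% of all genes, and above them for 2 genes, against 11.2%.

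In basophils 0 of 52 were called as well, beside 0.032% of all genes called higher and 0.024% called lower. At an unadjusted p under 0.05 there were 5 cascade genes lower and 0 higher in deficient basophils, beside 3.6% and 4.91% of all genes. The median difference was -0.18 on the log2 scale, against -0.01 over all genes, and 43 of 52 were negative. Both deficient basophil libraries lay below both control ones for 28 genes, or 53.8%, against 21.4% of all genes, and above them for 3, against 17.2%. Without each of the 4 basophil libraries in turn the cascade median lay between -0.25 and -0.17, against -0.063 to 0.035 over all genes. With only the second basophil library of each genotype it was -0.15 against 0.08 over all genes. Markers of other cells differed between the same groups. Proliferation markers summed to 13.8 and 18.3 TPM in control and 39.0 and 74.2 TPM in deficient basophils, with 1 of 5 called higher. Granulocyte progenitor markers summed to 199 and 148 TPM in control and 484.5 and 751.5 TPM in deficient basophils, with 1 of 5 called higher, the granule protease gene Ctsg (log2 difference 2.41 ± 0.21, SE; adjusted p = 0.00506). The part of these lists and of the eosinophil sums given above was not tested.

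Orai2 had the smallest p of the cascade genes between genotypes. It was at 18.8 and 21.4 TPM in control pre-Baso, 15.4 and 19.9 TPM in deficient pre-Baso, 44.3 and 32.4 TPM in control basophils and 21.9 and 23.0 TPM in deficient basophils. Deficient basophils were thus near the pre-Baso level and below both control basophil libraries, but the log2 difference of -0.73 ± 0.20 (SE) had an unadjusted p of 0.00608 and an adjusted p of 0.324. Hras, Ptprc, Mapk12 and Lat2 were the other 4, with log2 differences of -0.49, -0.46, -0.43 and -0.33 and adjusted p-values of 0.561, 0.525, 0.553 and 0.565. Averaged over populations 0 cascade genes were called, beside 0.048% of all genes called higher and 0.04% called lower, and at an unadjusted p under 0.05 there were 2 lower and 0 higher, beside 4.14% and 3.3% of all genes.

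**Figure D5:**
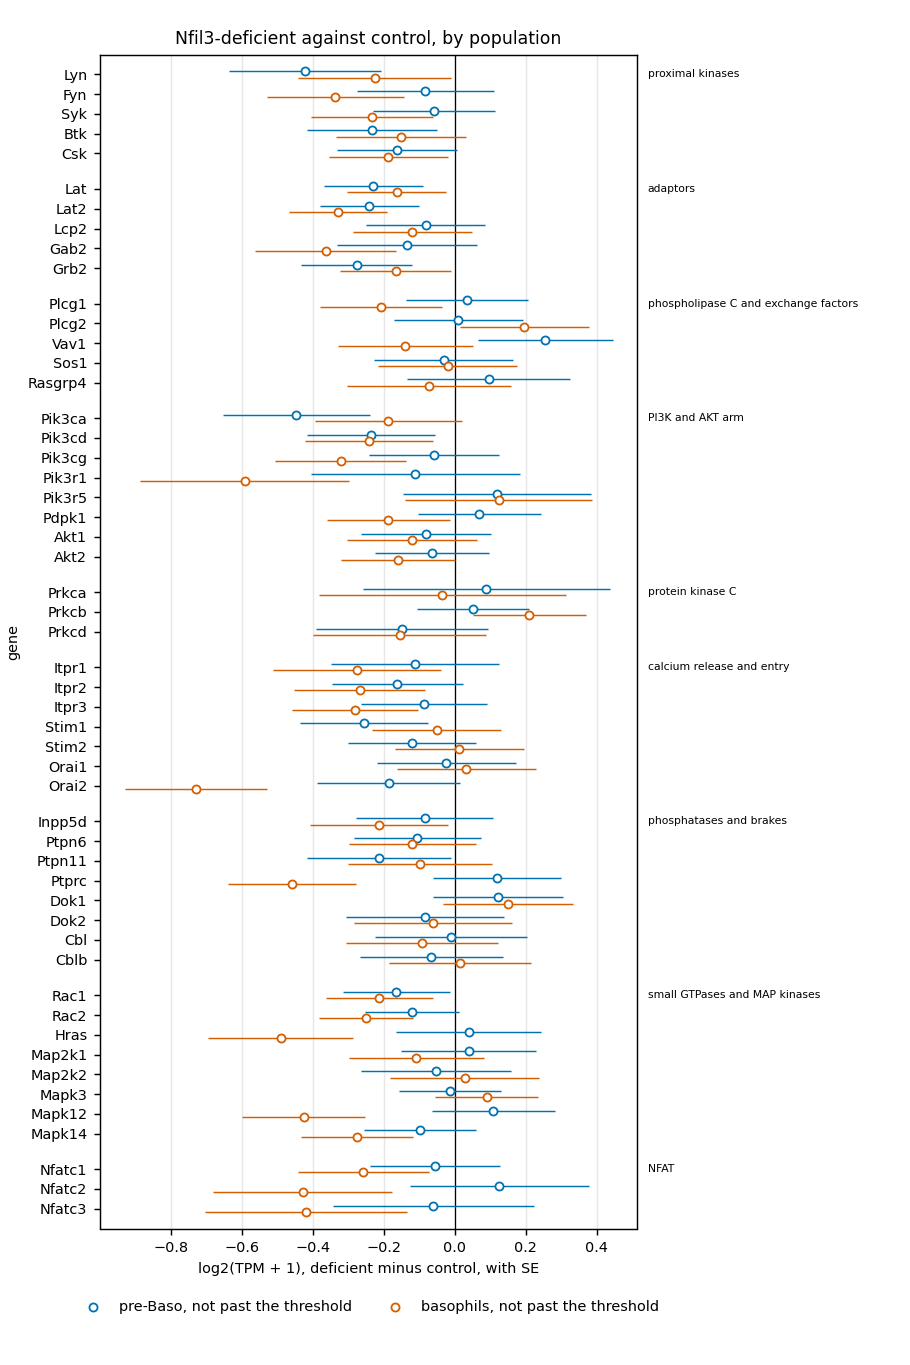
Log2(TPM + 1) of deficient minus control libraries for the 52 tested cascade genes, in pre-Baso (blue) and basophils (orange), with standard errors. All points are open because no adjusted p was under 0.05, and 43 of the 52 basophil points lie left of 0.

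Whether the change from pre-Baso to basophils differed between genotypes was tested by the interaction. No cascade gene was called by limma, 0 of 52, as over all genes (0.0% in each direction), and 0 had an unadjusted p under 0.05, beside 3.68% of all genes for a more positive and 1.82% for a more negative change in deficient mice. The median interaction was -0.09, against 0.03 over all genes, and 34 of 52 were negative. In fits lacking the first or second control pre-Baso library, the cascade median was 0.01 or -0.20, beside 0.12 or -0.07 over all genes. For the deficient pre-Baso libraries, in the same order, it was -0.14 or -0.03, beside 0.02 or 0.04. For the control basophil libraries it was -0.05 or -0.13, beside 0.07 or -0.02. For the deficient basophil libraries it was -0.06 or -0.13, beside 0.09 or -0.03. The cascade median thus lay below that of all genes in each of these fits. The most negative was Ptprc, whose log2 change was 1.26 ± 0.18 (SE) in control and 0.68 ± 0.18 (SE) in deficient mice, a difference of -0.58 ± 0.26 (SE; unadjusted p = 0.0524, adjusted p = 0.897). With 2 libraries a group, these tests do not show that the genotypes are alike.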

How the data were processed

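Total RNA was turned into libraries with a SMARTER mRNA kit, per the labels' protocols. Alignment was with HISAT2 (its version is not given in the sources used here) to mm10, per the submitters' processing notes. StringTie 2.1.4 estimated annotated transcripts of Ensembl 101 with no strand option, per the file headers. The deposited tables give TPM, FPKM and mean coverage by the authors' StringTie run as text in 1 other column, and they hold no read counts.

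TPM was summed per gene, and assigned bases are coverage times length. Genes reaching 1 TPM in 2 or more libraries were fitted on log2(TPM + 1), which understates changes of low genes, by limma 3.58.1 in R 4.3.3. The fit had 1 mean for each of the 4 groups over all 8 libraries, 4 residual degrees of freedom and moderation by the variance trend. Benjamini-Hochberg adjustment ran over all 12511 genes within each of 7 contrasts, with calls at an adjusted p under 0.05. The fit was tested on simulated data. Replicates are biological duplicates per the design text, with nothing said of pooling.

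The genes and lists were chosen with earlier results of these data known. Library values are given for the 16 cascade genes with the smallest adjusted p in the mean change between populations and for genes whose p or setting is discussed. Biotypes came from GENCODE M21. Alternatives were other scalings, FPKM, pseudocounts, filters, robust moderation, fits of only the compared groups, a replicate block and leaving out each library.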

Additional observations from a re-analysis of the deposited data

How the results depend on the processing

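The 16 cascade genes described library by library in the mean change from pre-Baso to basophils kept direction and call under the other scalings, FPKM, both pseudocounts, no filter, robust moderation, the replicate block and without each library in turn. With a minimum of 5 TPM 14 were tested and called, Plcg1 and Itpr2 being too low. Under these settings and fits of only the compared groups, 0 cascade genes were called between genotypes or, where it could be fitted, in the interaction. The count of genes called higher in the mean, 29, was 22 to 27 with each library left out in turn, and 21 of the 29 genes were called every time; those lost at least once were Map2k2, Mapk3, Nfatc3, Pik3r5, Ptpn6, Rac1, Rasgrp4 and Stim2. It was 19 with only the second basophil library of each genotype, a setting chosen after seeing the data. The control count, 22, was 8 to 21 with a library left out, lowest without the first control pre-Baso library, 12 with no filter on low values and 8 with only the second basophil libraries. The deficient count, 13, was 1 to 11 with a library left out, lowest without the first deficient pre-Baso library, 3 with no filter, 6 with only the compared groups and 2 with only the second basophil libraries.

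The count of genes called lower, 0 in the deficient and in the mean change, became 1 in both with TPM rescaled to protein-coding genes, with median-of-ratios scaling, with FPKM and with a minimum of 5 TPM, each time Hras. In the mean it was also 1 with the replicate block, which called Prkca (adjusted p = 0.0352). The replicate numbers were not treated as pairs, since deviations of same-numbered libraries correlated between -0.05 and 0.06 except for 0.20 between control and deficient basophils, and the block gave 20 higher calls in control, 11 in deficient mice and 29 in the mean. Having 2 libraries a group limits every genotype result, and no read counts were used, so counting error is unknown.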
